A study of Mus musculus with 28 samples.

Results

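The hippocampus is built from subfields whose principal neurons express different genes: the pyramidal cells of CA1, CA2 and CA3, the granule cells of the dentate gyrus and the mossy cells of the dentate hilus. The 32 marker genes followed here were taken as a list of such genes, 7 for CA1, 6 for CA2, 5 for CA3, 12 for dentate granule cells and 2 for mossy cells, and were matched by symbol to the Ensembl gene rows of a raw count table with 50686 genes. All 32 matched 1 row each, and all 32 passed the filter on low counts that left 16735 genes for testing.

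The table holds 28 RNA-seq libraries, made in 6 groups from male C57Bl6 mice, with dorsal hippocampus as the labelled tissue. The mice's ages, the doses and the times were not given in the sources used here. Mice of 5 groups had auditory fear conditioning, a task that joins a tone to a shock. They were given Cort (n = 5, the usual short form of corticosterone, the main glucocorticoid of mice), RU486 (n = 5, mifepristone, which blocks glucocorticoid and progesterone receptors), C108 (n = 5), C118 (n = 5) or Vehicle (n = 4). Basal mice (n = 4) had neither conditioning nor a treatment. C108 and C118 are ligands of the glucocorticoid receptor (GR) known here by code name alone. Libraries are named by group and sample number, and whether each came from a separate mouse is not stated, so p-values measure the spread between these libraries, which may be technical.

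In the trisynaptic circuit, granule cells of the dentate gyrus send mossy fibres to CA3, CA3 projects to CA1, and CA2 receives its own entorhinal and hypothalamic input. Mossy cells excite granule cells across the long axis of the dentate gyrus. Granule cells and CA1 pyramidal cells are rich in the glucocorticoid receptor, and CA2 cells are known for the mineralocorticoid receptor. In bulk tissue, fewer cells of a type and less RNA per cell cannot be told apart.

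Gene counts totalled 16.24 to 20.3 M per library (M, 10 to the power of 6). Levels are in CPM, counts scaled to an adjusted library total of 10 to the power of 6. Per kilobase of annotated exon, the highest mean levels over the 28 libraries were those of the CA1 gene Wfs1, an endoplasmic reticulum protein (52.0 CPM per kb), the CA3 gene Bok, a relative of Bcl family cell death proteins (47.0), and the CA1 gene Mpped1, a phosphoesterase-domain protein (42.0). The CA2 gene Rgs14, a brake on G protein signalling (40.3 CPM per kb), and the dentate gene C1ql2 (37.7) followed. The lowest were the CA1 marker Dcn (0.981 CPM per kb) and the mossy cell marker Csf2rb2 (0.247), whose lowest library held 11 counts. Each of the 32 markers was counted in every library, though some of them are also made by cells outside the subfield they are listed for.

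2 Vehicle libraries stood apart in markers of region. A score is the mean log2 CPM of a list's genes in a library, with each gene centred on all 28 libraries. Vehicle 29 had a ventral hippocampus score of 1.302, and 8 of 10 ventral markers were higher there than in the 26 libraries other than Vehicle 16, against the label of dorsal tissue. In Vehicle 29 the CA2, CA3 and dentate granule scores were -0.84, -0.78 and -0.57, the pan-excitatory score was -0.53, and 4 of 6 CA2, 3 of 5 CA3 and 6 of 12 dentate markers were below those 26 libraries. In this library 7 of 15 neocortex and 4 of 9 astrocyte markers were also above those 26, and 1 neocortex marker was below them. Its CA1 score was 0.15, but it contained the highest Dcn level (39.7 CPM) beside the lowest Wfs1 level (57.2 CPM). Vehicle 16 had a thalamus score of 2.29 and a neocortex score of 0.84, with all 15 thalamus markers and 10 of 15 neocortex markers above the other 26 libraries. There the CA1 score was -0.92 and 6 of 7 CA1 markers were below the other 26 libraries. Results that use the Vehicle group are also given without these 2 libraries where that ends a call or moves a called value by over 1.5 times. Other libraries differed in such scores too. Thalamus scores were above the Basal range also in Cort 4, 11 and 30, RU486 25 and Vehicle 3, and below it in 13 of 24 conditioned libraries. Choroid plexus scores reached 4.06 among RU486 and 2.58 among Cort libraries, against -1.90 to 0.72 in Basal libraries.

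**Figure D1:**
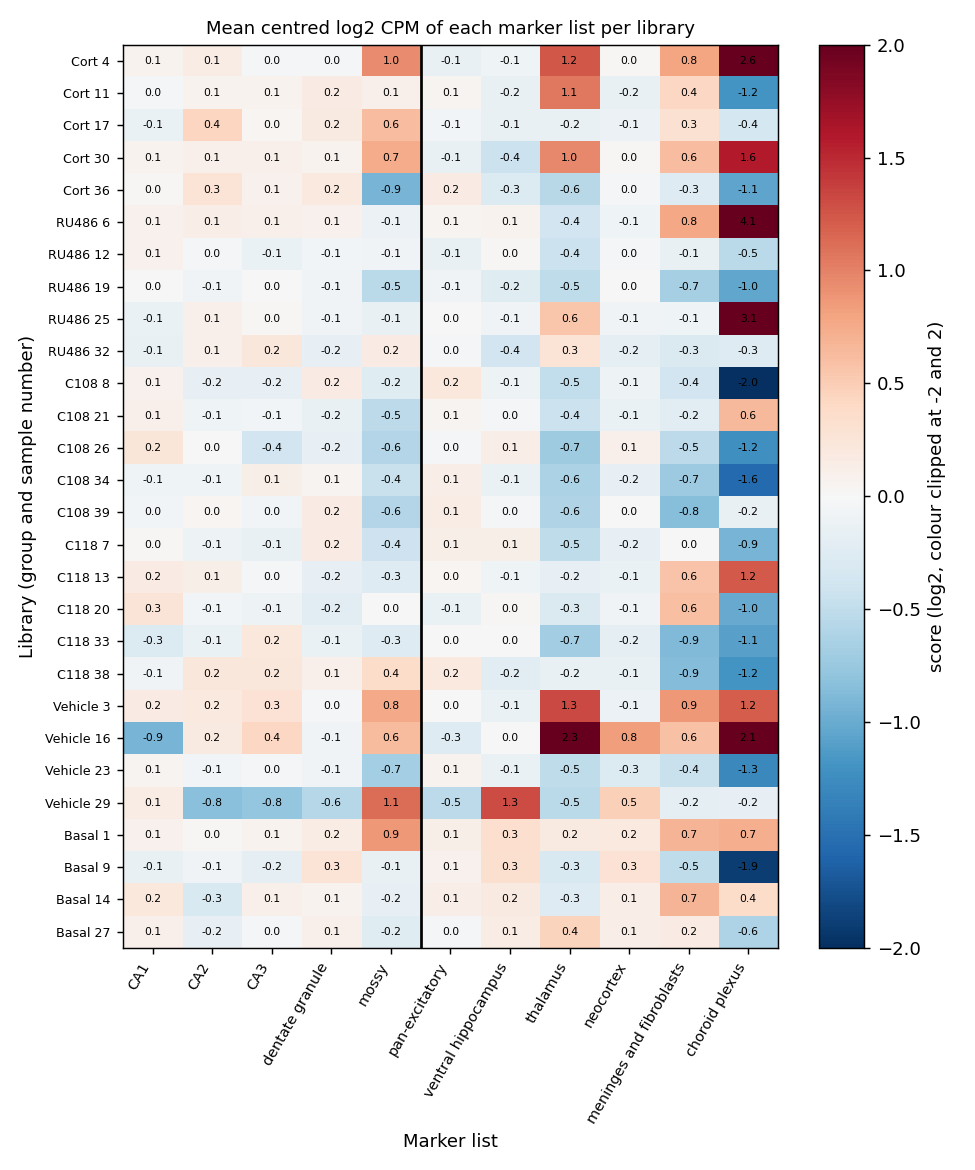
Scores of marker lists (columns; mean centred log2 CPM) in each of the 28 libraries (rows), with subfield lists left of the line and lists of other regions and cell types right of it. Vehicle 16 shows the lowest CA1 score (-0.92) beside the highest thalamus score (2.29), and Vehicle 29 shows the lowest CA2, CA3 and dentate granule scores beside the highest ventral hippocampus score (1.302).

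Several markers differed between conditioned and Basal mice, and 5 of the 8 that passed came from the dentate granule list, the longest of the 5 lists. Taking the 5 conditioned groups together with equal weight, 7 of the 32 markers fell and 1 rose, beside 11.2% of all tested genes called (6.29% lower, 4.89% higher; edgeR quasi-likelihood test, adjusted p under 0.05). Of 12 dentate granule markers 5 fell, namely Trpc6, Tdo2, Plk5, Glis3 and C1ql2, and 0 rose. Among CA1 markers 1 of 7 fell (Ndst4), among CA2 markers 1 of 6 rose (Amigo2) and 1 fell (Stard5), and 0 of 5 CA3 and 0 of 2 mossy cell markers passed in edgeR. At an unadjusted p under 0.05 there were 10 of 32 markers in all, beside 4248 of the 16735 tested genes. Of these 10 markers, 0 were CA3 or mossy cell markers. The median log2 fold change was -0.09 over all 32 markers, -0.15 for dentate granule, -0.09 for CA1, 0.15 for CA2, 0.14 for CA3 and -0.16 for mossy cells, against 0.00708 over all tested genes. The score of the 12 dentate granule markers was below every Basal library in 16 of 24 conditioned libraries, against 2 of 24 for the CA1, 1 for the CA2, 2 for the CA3 and 10 for the mossy cell list. A further list of 8 dentate granule genes was below in 6 of 24 and above in 3, while a further list of 8 CA3 genes was below in 18 of 24. This comparison does not separate conditioning from handling or treatment.

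The 5 dentate granule markers fell by between 0.33 (C1ql2) and 0.50 (Plk5) on the log2 scale. Trpc6, a diacylglycerol-activated cation channel (chr9:8544142-8680741, GRCm38, plus strand), had 23.8, 28.8, 29.5, 26.9 and 32.6 CPM in Cort, 34.3, 29.5, 28.9, 25.4 and 22.9 in RU486 and 26.5, 23.6, 25.1, 30.6 and 30.4 in C108. It had 33.5, 25.6, 22.6, 27.8 and 24.9 CPM in C118 and 27.3, 24.2, 25.7 and 25.4 CPM in Vehicle, against 31.1, 43.4, 35.3 and 35.1 CPM in Basal. Of 24 conditioned libraries 21 were below every Basal library. The log2 fold change was -0.41 ± 0.09 (SE, edgeR adjusted p = 0.00314), and the call held on leaving out each of the 28 libraries in turn.

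Tdo2, the tryptophan dioxygenase that opens the kynurenine pathway and is induced by glucocorticoids in liver (chr3:81957090-81976202, minus strand), had 8.39, 12.3, 14.3, 10.03 and 10.5 CPM in Cort, 8.54, 10.6, 10.4, 8.95 and 8.86 in RU486 and 11.3, 8.92, 10.1, 10.1 and 10.8 in C108. It had 10.3, 9.61, 10.9, 9.41 and 8.74 CPM in C118 and 8.98, 10.6, 10.3 and 9.31 CPM in Vehicle, against 12.7, 14.9, 11.5 and 14.3 CPM in Basal. Here 22 of 24 conditioned libraries were below every Basal library, and Cort 11 and Cort 17 overlapped with them. Its log2 fold change was -0.41 ± 0.09 (SE, edgeR adjusted p = 0.0043), and this call too held without each library in turn.

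Plk5, a brain-enriched member of the polo-like kinase family (chr10:80356459-80365489, plus strand), had 26.6, 23.8, 25.9, 25.2 and 22.5 CPM in Cort, 30.5, 24.8, 31.2, 21.8 and 17.5 in RU486 and 31.5, 19.9, 20.9, 22.98 and 28.1 in C108. It had 22.5, 18.4, 18.9, 18.5 and 25. CPM in C118 and 25.4, 21.5, 17.9 and 10.3 CPM in Vehicle, against 32.7, 30.9, 34.7 and 29.5 CPM in Basal. The lowest level was that of Vehicle 29, and RU486 6, RU486 19 and C108 8 reached into the Basal range. With a log2 fold change of -0.50 ± 0.14 (SE, edgeR adjusted p = 0.0194), Plk5 passed. The call was lost without Basal 1 (adjusted p = 0.0801) or Basal 14 (0.0967).

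Glis3, a zinc finger transcription factor (chr19:28258851-28680077, minus strand), had 18.8, 23.7, 24.6, 18.4 and 19.4 CPM in Cort, 23.8, 19.7, 17.9, 19.1 and 18.98 in RU486 and 30.8, 18.6, 15.4, 20.6 and 18.5 in C108. It had 28.8, 20.3, 19.3, 18.2 and 18.7 CPM in C118 and 25.8, 25.3, 17.6 and 17.4 CPM in Vehicle, against 29.8, 28.5, 27.7 and 24.99 CPM in Basal. Of 24 conditioned libraries 20 were below every Basal library and C108 8 was above them all. Glis3 passed with a log2 fold change of -0.41 ± 0.13 (SE, edgeR adjusted p = 0.0307), lost without Basal 1 (adjusted p = 0.141), Basal 9 (0.0731) or Basal 14 (0.0996).

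C1ql2, a secreted C1q-like protein of mossy fibre synapses (chr1:120340582-120343174, plus strand), had 74.98, 92.7, 67.2, 78.5 and 90.01 CPM in Cort, 68.6, 61.5, 74.7, 68.7 and 56.2 in RU486 and 82.5, 64.04, 81.3, 93. and 99.04 in C108. It had 70.03, 63.6, 56.9, 65.6 and 95.6 CPM in C118 and 67.3, 60.9, 70.1 and 44.7 CPM in Vehicle, against 86.7, 87.5, 97.5 and 90.3 CPM in Basal. The RU486 and Vehicle groups lay wholly below Basal, while Cort, C108 and C118 overlapped with it. The log2 fold change was -0.33 ± 0.11 (SE, edgeR adjusted p = 0.041). The call was lost on leaving out Basal 1, 9, 14 or 27 (adjusted p from 0.066 to 0.163) or, nearer the threshold, Cort 4, 17 or 30, RU486 12, C108 26, C118 13 or 33 (adjusted p from 0.0506 to 0.0547), without Vehicle 16 and 29 together (adjusted p = 0.0523) and without the whole Vehicle group (adjusted p = 0.0869).

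The other 7 dentate granule markers did not pass. Il16, a cytokine precursor whose neuronal form is a PDZ scaffold, had a positive log2 fold change of 0.30 ± 0.13 (SE, edgeR adjusted p = 0.138) and 19 of 24 conditioned libraries above every Basal library. Prox1, the homeobox factor that sets granule cell identity, had a median of 163 CPM in conditioned mice (113 to 206), against 176 CPM in Basal mice (161 to 192), a log2 fold change of -0.12 with a 95% interval of -0.35 to 0.10. The interval was -0.22 to 0.45 for Dsp, the junction protein desmoplakin (median 83.0 against 77.2 CPM), and -0.52 to 0.24 for Lct, the lactase gene (115 against 118.1 CPM). Stxbp6, a SNARE-binding protein (184 against 198 CPM), had -0.37 to 0.04, Calb1, the calcium buffer calbindin (124 against 120 CPM), -0.09 to 0.30, and Rfx3, a factor of cilium genes (122 against 131 CPM), -0.31 to 0.08. A further list of 8 dentate granule markers had 2 higher, Pdzd2 (0.73 ± 0.13) and Ahcyl2 (0.34 ± 0.06), and 2 lower, Cdh9 (-0.67 ± 0.07) and Pdzrn3 (-0.35 ± 0.11, SE, log2), with a median of -0.03.

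**Figure D2:**
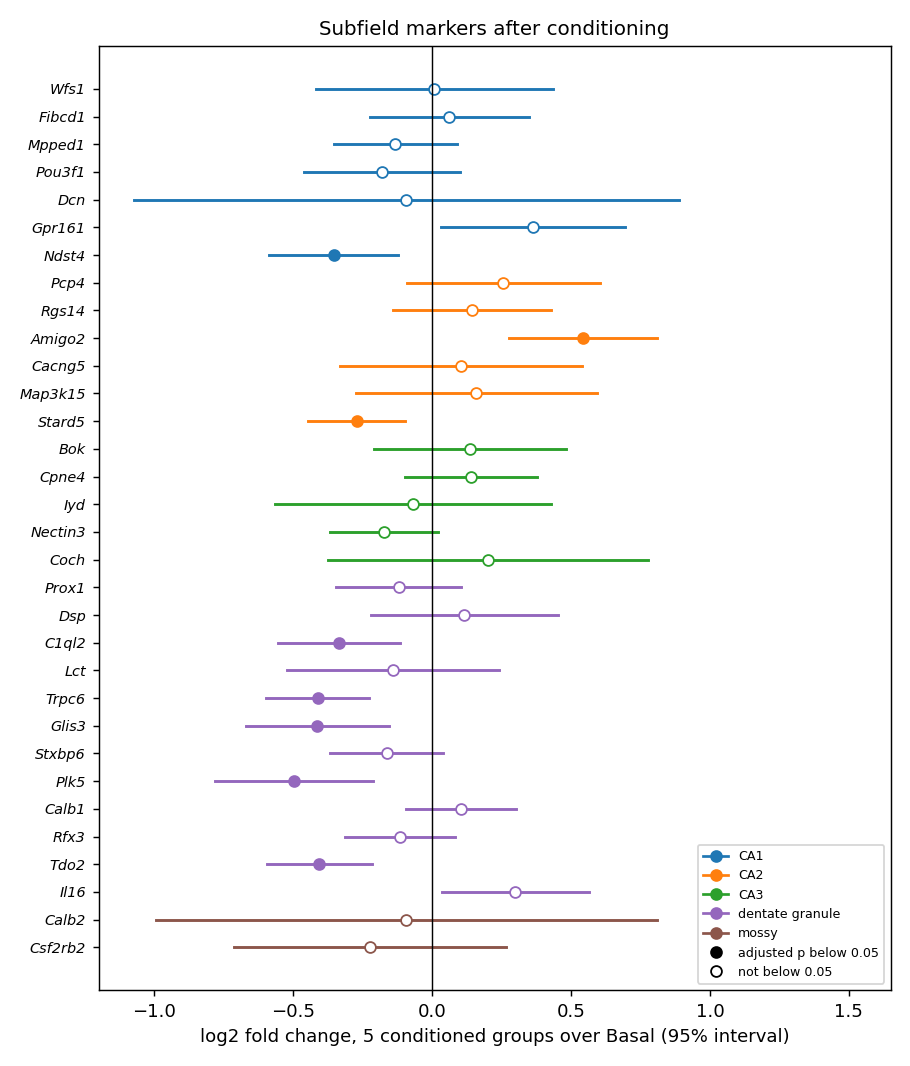
Log2 fold change of each of the 32 markers, 5 conditioned groups over Basal, with its 95% interval (edgeR), coloured by subfield; filled points passed at an adjusted p under 0.05. The filled points left of 0 are 5 dentate granule markers, Ndst4 and Stard5, and the filled point right of 0 is Amigo2 at 0.54.

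The windows upstream of the start sites of the 5 dentate markers that fell and of Amigo2, the marker that rose, are shown. These genes changed in the same comparison, which does not separate conditioning from treatment. In the main fit none of them passed in a ligand against Vehicle or in a direct pair of ligands. Whether a ligand acts through these windows was not tested. Stard5, which also fell, has a window that is counted below but not shown. The windows are the 250 bases before the RefSeq start (GRCm38.p6), 5′ to 3′ on the gene's strand, with matches to a searched motif in capitals. The Tdo2 window lies inside the gene span given above (chr3:81957090-81976202), so the RefSeq start of Tdo2 differs from the 5′ end of that span.
Trpc6, chr9:8543892-8544141, plus strand: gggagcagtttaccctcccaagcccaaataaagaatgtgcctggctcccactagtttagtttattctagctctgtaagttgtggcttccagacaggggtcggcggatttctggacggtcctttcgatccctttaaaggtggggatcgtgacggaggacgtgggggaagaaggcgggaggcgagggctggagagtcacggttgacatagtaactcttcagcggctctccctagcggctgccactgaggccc
Tdo2, chr3:81975729-81975978, minus strand: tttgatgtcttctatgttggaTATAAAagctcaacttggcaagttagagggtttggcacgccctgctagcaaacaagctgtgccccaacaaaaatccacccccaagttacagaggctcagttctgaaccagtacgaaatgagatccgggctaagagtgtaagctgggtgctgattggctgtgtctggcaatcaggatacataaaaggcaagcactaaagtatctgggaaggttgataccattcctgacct
Plk5, chr10:80356209-80356458, plus strand: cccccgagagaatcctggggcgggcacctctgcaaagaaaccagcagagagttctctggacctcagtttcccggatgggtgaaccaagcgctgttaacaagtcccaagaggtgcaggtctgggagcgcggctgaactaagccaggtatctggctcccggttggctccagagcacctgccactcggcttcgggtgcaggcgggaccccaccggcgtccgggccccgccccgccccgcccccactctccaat
Glis3, chr19:28680078-28680327, minus strand: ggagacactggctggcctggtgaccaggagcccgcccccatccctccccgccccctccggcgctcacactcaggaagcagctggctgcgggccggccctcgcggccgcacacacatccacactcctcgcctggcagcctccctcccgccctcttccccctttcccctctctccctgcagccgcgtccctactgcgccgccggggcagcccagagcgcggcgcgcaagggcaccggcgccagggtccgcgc
C1ql2, chr1:120340332-120340581, plus strand: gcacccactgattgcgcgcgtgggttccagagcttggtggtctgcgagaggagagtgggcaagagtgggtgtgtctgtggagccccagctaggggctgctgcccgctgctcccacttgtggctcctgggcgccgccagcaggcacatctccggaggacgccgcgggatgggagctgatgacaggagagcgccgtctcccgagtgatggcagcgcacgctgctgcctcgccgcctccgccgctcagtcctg
Amigo2, chr15:97247288-97247537, minus strand: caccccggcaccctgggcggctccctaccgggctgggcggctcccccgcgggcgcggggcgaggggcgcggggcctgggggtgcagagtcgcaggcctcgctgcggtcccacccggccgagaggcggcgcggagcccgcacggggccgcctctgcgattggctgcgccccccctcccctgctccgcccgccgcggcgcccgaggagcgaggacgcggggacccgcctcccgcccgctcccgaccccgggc
The motifs, searched on both strands, were the full glucocorticoid response element (AGAACA and TGTTCT set 3 bases apart), its right arm TGTTCT alone (also part of the full element), the cAMP response element TGACGTCA, an E box bound by NeuroD factors CAGATG, and TATAAA. 1 match lay in these 6 windows, a TATAAA at position -229 of Tdo2, counted from the RefSeq start site. RefSeq windows were at hand for 25 of the 32 markers, with 32 windows in all because some have several starts. Of these, 0 held the full response element, which 0.01% of 32851 mouse windows of this length held, and 1 held the right arm (Bok), which 16.08% of all windows held. The cAMP response element was in 0 (1.55% of all windows), the E box in 6 (14.44%) and TATAAA in 3 (12.37%). No match says only that these letters are not in these windows.

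Of the CA1 markers, 1 passed. Ndst4, an enzyme that modifies heparan sulfate (chr3:125404076-125728899, plus strand), had 43.9, 49.5, 49.7, 58.1 and 68.02 CPM in Cort, 64.8, 60.7, 56.3, 55.02 and 48.2 in RU486 and 61.7, 59.7, 69.2, 52.5 and 61.9 in C108. It had 72.8, 57.7, 65.5, 51.7 and 48.7 CPM in C118 and 56.1, 30.99, 61.9 and 46.1 CPM in Vehicle, against 70.6, 69.1, 77.4 and 68.2 CPM in Basal. All but C108 26 and C118 7 were below every Basal library, and the lowest was Vehicle 16. Ndst4 passed with a log2 fold change of -0.35 ± 0.11 (SE, edgeR adjusted p = 0.0414). The call was lost on leaving out Basal 1, 9, 14 or 27 (adjusted p from 0.0673 to 0.174) or, nearer the threshold, Cort 11 or 17, RU486 25, C108 34 or 39, C118 13 or 33 (adjusted p from 0.0504 to 0.0537).

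Gpr161, a receptor of the primary cilium, was above every Basal library in 21 of 24 conditioned libraries, with a median of 106 CPM in conditioned mice, against 83.4 CPM in Basal mice, but missed the threshold with a log2 fold change of 0.36 ± 0.16 (SE, edgeR adjusted p = 0.151). Medians were 205 CPM in conditioned mice against 194 CPM in Basal mice for Wfs1, 168 against 163 CPM for Fibcd1, a membrane receptor of acetylated sugars, 173 against 197 CPM for Mpped1, and 49.2 against 49.4 CPM for the POU factor gene Pou3f1. Their log2 fold changes lay between -0.18 (Pou3f1) and 0.06 (Fibcd1). Among further CA1 genes, the mannosidase Man1a fell by 0.64 ± 0.11 (SE, log2).

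Amigo2, a leucine-rich adhesion protein of CA2 and neighbouring CA3 cells (chr15:97244125-97247287, minus strand), was the marker that rose. It had 45.01, 37.4, 55.8, 37.2 and 50.7 CPM in Cort, 42.8, 35.7, 35.3, 39.4 and 43.9 in RU486 and 34.3, 35.03, 44.3, 37.4 and 37.4 in C108. It had 33.9, 42.2, 33.3, 35.04 and 46.1 CPM in C118 and 43.1, 32.9, 34.5 and 19.3 CPM in Vehicle, against 27.6, 28.5, 22.4 and 26.8 CPM in Basal. Of 24 conditioned libraries 23 were above every Basal library, and Vehicle 29, at 19.3 CPM, was below them all. Its log2 fold change was 0.54 ± 0.13 (SE, edgeR adjusted p = 0.00655), lost without Basal 14 (adjusted p = 0.0612), and 0.59 without Vehicle 16 and 29. The exons of Amigo2 overlap those of Pced1b on the other strand, which had 4.08 CPM and a log2 fold change of -0.04 (edgeR adjusted p = 0.868).

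Stard5, a lipid-binding START protein (chr7:83631959-83653127, plus strand), had 13.7, 13.02, 16.3, 11.6 and 10.4 CPM in Cort, 13.5, 10.95, 11.8, 11.8 and 10.5 in RU486 and 11.8, 12.4, 11.3, 10.5 and 13.2 in C108. It had 12.8, 12.4, 14.2, 12. and 11.3 CPM in C118 and 12.5, 11.5, 10.9 and 14.2 CPM in Vehicle, against 13.2, 15.2, 15.8 and 14.96 CPM in Basal. The groups overlapped, with Cort 17 above every Basal library. Its log2 fold change was -0.27 ± 0.09 (SE, edgeR adjusted p = 0.0377). The call ended on leaving out Basal 9, 14 or 27 (adjusted p from 0.0915 to 0.177) or, nearer the threshold, Cort 30, RU486 25, C108 26 or 34, C118 13 or 38, Vehicle 23 (adjusted p from 0.0502 to 0.0557) and with thalamus and neocortex scores as covariates (adjusted p = 0.103). The exons of Stard5 and Il16 overlap on opposite strands, and with the strand setting of the counting not given in the sources used here, reads of both cannot be told apart there.

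The other 4 CA2 markers had log2 fold changes of 0.26 for the calmodulin-binding protein Pcp4, 0.14 for Rgs14, 0.10 for the AMPA receptor auxiliary protein Cacng5 and 0.16 for the kinase Map3k15, with adjusted p-values between 0.363 and 0.808 in edgeR, so that no further CA2 marker passed. Their medians were 19.6, 171, 26.1 and 5.22 CPM in conditioned mice, against 16.8, 156, 21.2 and 4.47 CPM in Basal mice. The CA2 score was above every Basal library in 13 of 24 conditioned libraries, all 5 Cort libraries among them. That of a further list of 6 CA2 genes was above in 4 of 24 (Cort 4 and 36, RU486 6 and 25) and below in 1. Its gene Ntf3 was lower in Vehicle against Basal (log2 -0.86 ± 0.24 SE, edgeR adjusted p = 0.0404). The score of the further mossy cell list was above in 12 of 24, all 5 Cort libraries among them, and below in 6.

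**Figure D3:**
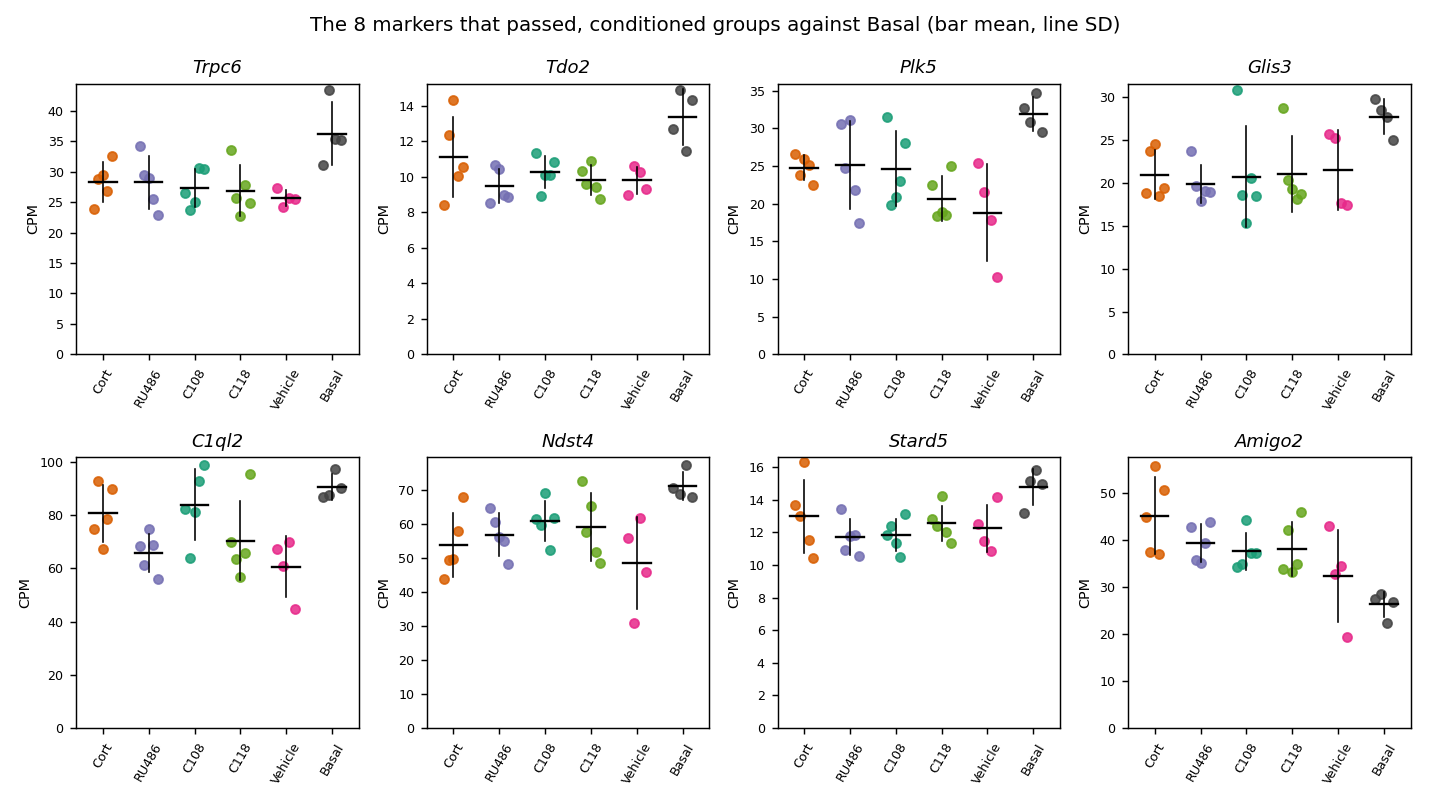
CPM of the 8 markers that passed, 1 point per library, by group, with the group mean (bar) and SD (line). The 4 Basal libraries sit above most conditioned libraries for Trpc6, Tdo2, Plk5, Glis3, C1ql2, Ndst4 and Stard5, and below 23 of 24 for Amigo2.

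For CA3 markers, medians were 89.8 CPM in conditioned mice against 77.2 CPM in Basal mice for Bok, 169 against 154 CPM for the copine gene Cpne4, 9.02 against 9.58 CPM for the iodotyrosine deiodinase gene Iyd, 44.8 against 50.5 CPM for the adhesion gene Nectin3 and 3.27 against 3.45 CPM for Coch. Their log2 fold changes ran from -0.17 (Nectin3, 95% interval -0.37 to 0.02) to 0.20 (Coch, -0.37 to 0.78). Nectin3 had 35.2, 43.5, 47.9, 43.4 and 37.1 CPM in Cort, 47.2, 41.5, 39.8, 47.7 and 55.9 in RU486 and 45.5, 54.02, 34.2, 46.3 and 41.1 in C108. It had 51.6, 45.2, 44.4, 57.9 and 42.4 CPM in C118 and 52.4, 46.1, 42.8 and 41.4 CPM in Vehicle, against 57.5, 45.04, 53.6 and 47.5 CPM in Basal, and these overlapped widely. In the further CA3 list, 3 of 8 genes fell, the neuropeptide Y receptor Npy2r (-0.59 ± 0.12), the cadherin Cdh24 (-0.44 ± 0.11) and the transcription factor Trps1 (-0.42 ± 0.12, SE, log2).

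The mossy cell markers are Calb2, the calcium buffer calretinin, which interneurons and parts of the thalamus also make, and Csf2rb2, a receptor subunit of mice that is nearly identical to Csf2rb. Calb2 had 31.7, 18.2, 20.95, 28.1 and 5.83 CPM in Cort, 7.07, 8.55, 5.74, 12.1 and 14.2 in RU486 and 5.14, 5.91, 7.22, 6.29 and 7.22 in C108. It had 6.07, 7.87, 16.2, 6.71 and 26.5 CPM in C118 and 28.1, 35.6, 6.25 and 37.3 CPM in Vehicle, against 33.4, 8.49, 5.99 and 9.41 CPM in Basal. Cort, C118, Vehicle and Basal each held libraries above every RU486 and C108 library, and the log2 fold change had a 95% interval of -0.99 to 0.81. Csf2rb2 had 1.59, 0.794, 1.497, 1.33 and 0.563 CPM in Cort, 1.597, 1.41, 1.06, 0.8597 and 1.16 in RU486 and 1.86, 1.04, 0.774, 1.12 and 0.762 in C108. It had 1.203, 1.16, 0.789, 1.37 and 0.803 CPM in C118 and 1.34, 0.872, 0.781 and 1.69 CPM in Vehicle, against 1.33, 1.26, 1.78 and 0.965 CPM in Basal. At these low counts the interval was -0.71 to 0.27, and reads shared with Csf2rb make its level uncertain. In a further list of mossy cell genes, 1 of 5 fell, the synaptic vesicle protein gene Sv2c, with a log2 fold change of -0.39 ± 0.10 (SE, edgeR adjusted p = 0.00827). Sv2c was also lower in RU486 against Basal (-0.53 ± 0.12, adjusted p = 0.0111) and in C118 against Basal (-0.49 ± 0.12, adjusted p = 0.02004).

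Scores of neocortex and ventral hippocampus markers were also lower in most conditioned libraries than in the Basal libraries. The neocortex score was -0.27 to 0.84 in conditioned libraries, with 22 of 24 below the Basal range of 0.13 to 0.28, and Vehicle 16 and 29 above it. The ventral hippocampus score was -0.43 to 1.302 in conditioned libraries, with 23 of 24 below the Basal range of 0.14 to 0.33. The myelin score was below the Basal range in 14 of 24 and above it in 0, beside 16 and 0 for the dentate granule list. The pan-excitatory score was below in 10 and above in 5. By gene, 2 of 15 neocortex markers fell (Fezf2 and Tle4) and 1 of 10 ventral markers (Efnb2), beside 1 of 10 myelin genes (Opalin) and 1 of 8 pan-excitatory genes (Tbr1). Summed levels overlapped, at 333 to 470 CPM in conditioned libraries against 377 to 392 CPM in Basal libraries for neocortex, and 646 to 954 CPM against 680 to 866 CPM for ventral hippocampus. With 0 genes called were thalamus (of 15), choroid plexus (of 11), meninges and fibroblasts (of 11), interneurons (of 14) and astrocytes (of 9). At an unadjusted p under 0.05 these lists had 0, 0, 2, 1 and 0 genes, beside 4248 of the 16735 tested genes. With thalamus and neocortex scores as covariates all of the 8 markers but Stard5 still passed, and without Vehicle 16 and 29 all but C1ql2. With no filter on low counts, where 31703 genes were tested, Trpc6, Tdo2 and Amigo2 still passed, and the adjusted p was 0.0511 for Plk5, 0.0647 for Glis3, 0.0747 for Stard5, 0.0757 for C1ql2 and 0.0855 for Ndst4. The part of the ventral markers in these results was not tested.

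Each conditioned group was also set against Basal alone. These 5 comparisons share the Basal libraries, so their values are given side by side and no overlap between them is counted as support.

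In Vehicle against Basal, 5 of 32 markers fell and 0 rose, beside 4.11% of all genes (1.64% higher, 2.47% lower). The log2 fold changes were -0.77 ± 0.19 for Plk5, -0.58 ± 0.14 for C1ql2, -0.55 ± 0.15 for Ndst4, -0.50 ± 0.12 for Trpc6 and -0.45 ± 0.13 for Tdo2 (SE, edgeR adjusted p from 0.0167 to 0.0378). Without Vehicle 16 and 29, edgeR called 0 of the 32, beside 378 of 17135 tested genes. The 5 values were then -0.56, -0.40, -0.27, -0.45 and -0.47, so that the value of Ndst4 was the one that moved by over 1.5 times. The call of Trpc6 was lost without Basal 9 (adjusted p = 0.0608), and that of C1ql2 without Vehicle 29 (adjusted p = 0.0857) or Basal 14 (0.068). For Plk5 it was lost without Vehicle 29 (adjusted p = 0.0619), Basal 1 (0.0512) or Basal 14 (0.0655). Ndst4 lost its call without Vehicle 16 or 29, Basal 1, 14 or 27 (adjusted p from 0.0716 to 0.127) or, nearer the threshold, RU486 25 (adjusted p = 0.0503), and Tdo2 without Vehicle 3 or 29, Basal 1, 9 or 27 (adjusted p from 0.0662 to 0.118) or, nearer the threshold, Cort 30, RU486 25, C108 26, 34 or 39, C118 13, Vehicle 23 (adjusted p from 0.051 to 0.056). With thalamus and neocortex scores as covariates Tdo2 was lost (adjusted p = 0.0645). With only the 2 groups fitted, and likewise with no filter, Plk5, Tdo2 and Ndst4 were lost (adjusted p from 0.0662 to 0.153, and from 0.0521 to 0.0833).

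In Cort against Basal, 2 of 32 markers rose and 0 fell, beside 6.27% of all genes (2.84% higher, 3.43% lower). Amigo2 rose by 0.78 ± 0.16 (SE, log2, edgeR adjusted p = 0.00189), and this call held without each of the 28 libraries in turn. Il16 (chr7:83642825-83745726, minus strand) had 68.9, 72.6, 88.2, 82.5 and 99.9 CPM in Cort, 70.2, 59.8, 59.8, 75.3 and 74.2 in RU486 and 68.1, 62.7, 65.6, 83.7 and 84.8 in C108. It had 64.9, 62.5, 59.4, 70.4 and 95.8 CPM in C118 and 71.98, 58.8, 67.3 and 35.7 CPM in Vehicle, against 54.8, 59.6, 51.6 and 61.6 CPM in Basal. All 5 Cort libraries were above all 4 Basal libraries, and the log2 fold change was 0.53 ± 0.16 (SE, edgeR adjusted p = 0.0383). The call was lost without Cort 17, 30 or 36, Basal 1 or 14 (adjusted p from 0.0616 to 0.134) or, nearer the threshold, Basal 9 or 27 (adjusted p from 0.0534 to 0.0562), and with thalamus and neocortex scores as covariates (adjusted p = 0.223) or no filter (adjusted p = 0.0951). Thalamus scores were -0.56 to 1.25 in Cort libraries and -0.30 to 0.44 in Basal libraries.

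RU486 against Basal gave 1 marker higher and 2 lower of 32, beside 5.45% of all genes (2.61% higher, 2.84% lower). Tdo2 fell by 0.49 ± 0.12 and C1ql2 by 0.46 ± 0.14, and Amigo2 rose by 0.58 ± 0.16 (SE, log2, edgeR adjusted p = 0.0141, 0.0459 and 0.0284). The Tdo2 call was lost without Basal 27 (adjusted p = 0.0519), and that of Amigo2 without RU486 32 (adjusted p = 0.0605), Basal 1 (0.0703), Basal 14 (0.12) or Basal 27 (0.0648). That of C1ql2 was lost without RU486 12, 25 or 32, Basal 1, 14 or 27 (adjusted p from 0.0696 to 0.13) or, nearer the threshold, Cort 30, RU486 6 or 19, C108 26 or 34, C118 7, 13 or 33, Vehicle 16, Basal 9 (adjusted p from 0.0509 to 0.0568). Amigo2 was also lost with thalamus and neocortex scores as covariates (log2 0.47, adjusted p = 0.103), and with no filter both Amigo2 (0.0662) and C1ql2 (0.0861) were.

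C108 against Basal gave 1 marker higher and 1 lower of 32, beside 6.04% of all genes (2.79% higher, 3.24% lower). Amigo2 rose by 0.52 ± 0.16 and Trpc6 fell by 0.41 ± 0.12 (SE, log2, edgeR adjusted p = 0.0465 and 0.0334). The Trpc6 call was lost without C108 21 or 26, Basal 9 or 14 (adjusted p from 0.0654 to 0.123) or, nearer the threshold, Basal 27 (adjusted p = 0.053). The Amigo2 call ended without C108 26, 34 or 39, Basal 1, 14 or 27 (adjusted p from 0.0715 to 0.173) or, nearer the threshold, RU486 12, 25 or 32, C108 21, C118 7 or 33, Vehicle 16, Basal 9 (adjusted p from 0.05 to 0.0519). It also ended with thalamus and neocortex scores as covariates (log2 0.47, adjusted p = 0.127) and with no filter (adjusted p = 0.103).

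C118 against Basal gave 3 markers lower and 0 higher of 32, beside 3.87% of all genes (1.74% higher, 2.13% lower). Plk5 fell by 0.63 ± 0.18, Tdo2 by 0.45 ± 0.12 and Trpc6 by 0.43 ± 0.12 (SE, log2, edgeR adjusted p = 0.0445, 0.0297 and 0.0323). Amigo2 had a log2 fold change of 0.53 ± 0.16 and just missed the threshold (edgeR adjusted p = 0.0515). The Tdo2 call was lost without C118 13, 33 or 38, Basal 1, 9 or 27 (adjusted p from 0.0638 to 0.0983). That of Trpc6 was lost without C118 13, 20 or 38, Basal 9, 14 or 27 (adjusted p from 0.0639 to 0.105) or, nearer the threshold, C118 33 (adjusted p = 0.0583). For Plk5 the call ended without C118 13, 20 or 33, Basal 1, 14 or 27 (adjusted p from 0.0731 to 0.133) or, nearer the threshold, Cort 11, 17 or 30, RU486 12, C108 34, C118 7, Basal 9 (adjusted p from 0.052 to 0.0537). With thalamus and neocortex scores as covariates all 3 calls were lost, at log2 values of -0.68 for Plk5 (adjusted p = 0.0821), -0.43 for Tdo2 (0.114) and -0.47 for Trpc6 (0.0541). With no filter Plk5 (0.11) and Tdo2 (0.0517) were lost, and with only the 2 groups fitted Trpc6 (0.06).

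The ligands were then set against Vehicle, which asks what each added to conditioning. In C108 against Vehicle, 1 of 32 markers fell, Coch, beside 0.215% of all genes (0.161% lower). Coch encodes cochlin, an extracellular matrix protein of the inner ear (chr12:51593341-51605771, plus strand). It had 6.24, 3.92, 3.303, 4.79 and 2.92 CPM in Cort, 5.65, 3.96, 3.24, 2.73 and 3.43 in RU486, 2.13, 2.57, 2.58, 2.49 and 2.19 in C108 and 2.35, 3.705, 4.53, 2.33 and 3.16 in C118, against 6.25, 16.9, 2.96 and 4.14 CPM in Vehicle and 3.38, 2.69, 4.06 and 3.52 CPM in Basal. All 5 C108 libraries were below all 4 Vehicle libraries, and Vehicle 16 was higher than every other library.

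The log2 fold change of Coch in C108 against Vehicle was -1.66 ± 0.34 (SE, edgeR adjusted p = 0.0384). The call was lost without C108 8, 26, 34 or 39, Vehicle 16 (adjusted p from 0.0728 to 0.324) or, nearer the threshold, RU486 12 (adjusted p = 0.0516). Without Vehicle 16 and 29 the log2 value was -0.95 (adjusted p = 0.835), and with thalamus and neocortex scores as covariates -0.49 (adjusted p = 0.663). The call was also lost in limma-voom (0.0915), with no filter (0.0699) and with only the 2 groups fitted (0.305). Thalamus scores were -0.71 to -0.43 in C108 and -0.54 to 2.29 in Vehicle, and meninges and fibroblast scores -0.85 to -0.23 in C108 and -0.44 to 0.87 in Vehicle. The thalamus gene Rora was also lower in C108 against Vehicle (log2 -1.12 ± 0.22 SE, edgeR adjusted p = 0.0384). It was higher in Vehicle against Basal (0.95 ± 0.24 SE, adjusted p = 0.0202). The count of subfield markers called in C108 against Vehicle was 8 without Vehicle 23, 2 without Vehicle 3, Cort 36 or C108 21, and 0 without Vehicle 16, RU486 12, C108 8, C108 26, C108 34 or C108 39. Counts over all tested genes in these runs are not given here, so no excess of markers can be read from them.

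Dcn, the proteoglycan decorin, which fibroblasts of the meninges also make, had the second smallest p of the 32 markers in C108 against Vehicle and did not pass. It had 6.75, 6.19, 4.49, 8.95 and 2.199 CPM in Cort, 5.16, 4.49, 2.5, 3.995 and 3.11 in RU486, 2.08, 3.503, 2.06, 2.08 and 1.32 in C108 and 3.12, 7.53, 7.16, 1.59 and 2.26 in C118, against 11.5, 5.08, 2.398 and 39.7 CPM in Vehicle and 8.804, 2.69, 5.48 and 4.25 CPM in Basal. Vehicle 29 was higher than all others. In that library 0 of 11 meninges and fibroblast markers were above the 26 libraries other than Vehicle 16, and 1 was below them. Of 10 ventral hippocampus markers 8 were above and 1 was below. The source of Dcn in Vehicle 29 was not tested. The log2 fold change of C108 over Vehicle was -2.73 ± 0.61 (SE, edgeR adjusted p = 0.0576). Without Vehicle 16 and 29 it was -1.66 ± 0.57 (adjusted p = 0.835), and without Vehicle 29 alone -1.52 ± 0.51 (adjusted p = 0.254). Dcn passed in DESeq2 (adjusted p = 0.00236), and in edgeR without Vehicle 23 (0.00356), Cort 36 (0.0422), Vehicle 3 (0.0453) or C108 21 (0.049).

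**Figure D4:**
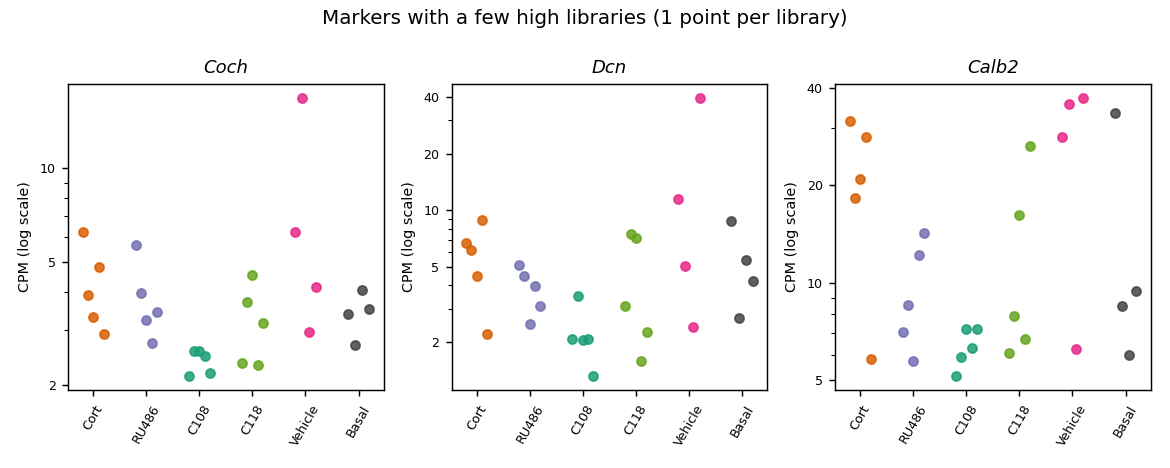
CPM on a log scale of Coch, Dcn and Calb2 by group, 1 point per library. Coch is highest in Vehicle 16 (16.9 CPM), Dcn in Vehicle 29 (39.7 CPM), and Calb2 spreads over 5.14 to 37.3 CPM with high and low libraries in most groups, C108 staying at or below 7.22 CPM.

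The remaining ligands gave no called marker against Vehicle in edgeR, DESeq2 or limma-voom. In Cort against Vehicle 0 of 32 passed, beside 0.00598% of all genes. At an unadjusted p under 0.05 there were 9 of 32, beside 1947 of the 16735 tested genes. The smallest p belonged to Lct (log2 0.79 ± 0.24 SE, 95% interval 0.30 to 1.28, adjusted p = 0.214), and without Vehicle 16 and 29 the count at an unadjusted p under 0.05 was 2. Il16 had 0.50 with an interval of 0.17 to 0.82 and Amigo2 0.48 with 0.16 to 0.80. Without both libraries the log2 values were 0.41 for Lct, 0.24 for Il16 and 0.22 for Amigo2. In RU486 against Vehicle 0 of 32 passed, beside 0% of all genes, and likewise in C118 against Vehicle. At an unadjusted p under 0.05 there were 6 markers for RU486, beside 1366 of the 16735 tested genes. For C118 there were 5 markers, beside 1340 genes. Without Vehicle 16 and 29 these 2 counts of markers were both 0. Without Vehicle 23 alone, 2 markers passed in RU486 against Vehicle and 3 in C118 against Vehicle. For the marker counts without Vehicle 16 and 29 or without Vehicle 23, the matching counts over all tested genes are not given here.

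The 4 ligands were compared directly in 6 pairs, with the limit that their doses are not given. None of the 32 markers passed in any of the 6 pairs in edgeR, DESeq2 or limma-voom, with p-values adjusted over all tested genes, beside 0.0538% of all genes called for Cort against RU486 (0.0478% higher) and 0% for the other 5 pairs. At an unadjusted p under 0.05 there were 3 markers in Cort against RU486, 5 in Cort against C108 and 1 in C108 against RU486. In these pairs 894, 817 and 961 of the 16735 tested genes were at that level. The remaining 3 pairs had 0 markers, beside 713 genes (Cort against C118), 307 (C118 against RU486) and 401 (C108 against C118). The largest of these marker differences was that of Calb2 in Cort over C108, at 1.72 on the log2 scale with a 95% interval of 0.61 to 2.83 (edgeR adjusted p = 0.73).

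For C108 over C118 the 95% intervals of the log2 difference were -0.21 to 0.25 for Trpc6, -0.17 to 0.30 for Tdo2, -0.30 to 0.13 for Stard5, -0.24 to 0.32 for Ndst4 and -0.31 to 0.28 for Amigo2. They were -0.10 to 0.61 for Plk5, -0.01 to 0.52 for C1ql2 and -0.33 to 0.29 for Glis3. The intervals of Coch (-1.12 to 0.27) and Calb2 (-2.12 to 0.12) held larger differences. For Cort over RU486, agonist over antagonist, the interval of Amigo2 was -0.10 to 0.49 and that of Il16 -0.02 to 0.58.

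In the test over the 6 groups together, 3 of 32 markers passed, Amigo2 (edgeR adjusted p = 0.0298), Coch (0.03) and C1ql2 (0.0438), beside 4.73% of all genes. The Amigo2 call was lost without Basal 1, 14 or 27 (adjusted p from 0.0819 to 0.125) or, nearer the threshold, Cort 17 or 36 (adjusted p from 0.0534 to 0.0551). The Coch call was lost without Vehicle 16, Basal 1 (adjusted p from 0.0606 to 0.157) or, nearer the threshold, C108 39, Basal 14 or 27 (adjusted p from 0.0516 to 0.0529), and that of C1ql2 on leaving out 21 of the 28 libraries (adjusted p up to 0.11). Without Vehicle 16 and 29 Coch (0.186) and C1ql2 (0.116) were lost, and with thalamus and neocortex scores as covariates Coch (0.462) and Amigo2 (0.24). With no filter all 3 were lost (adjusted p from 0.0661 to 0.0911), and Coch was lost in limma-voom (0.17). Of the 15 thalamus genes, Rora (edgeR adjusted p = 0.0125), Shox2 (0.0381) and Synpo2 (0.0454) passed over the 6 groups as well.

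Within groups, markers of the same subfield tended to vary together from library to library. Over the 26 libraries without Vehicle 16 and 29, the Pearson correlation of deviations from group means had a median of 0.28 over 113 pairs within a subfield and -0.05 over 383 pairs between subfields. The medians were 0.38 within CA1, 0.06 within CA2, 0.29 within CA3 and 0.33 within the dentate granule list, and -0.22 between CA1 and CA3. With all 28 libraries they were 0.34 within subfields and 0.02 between. The values are a description: points share library preparation and depth, and how much of each subfield a dissection held was not measured.

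The closest pairs did not all follow the subfield labels. The highest correlation was that of the CA3 marker Cpne4 with the dentate marker Il16, at 0.88, followed by Lct with Il16 at 0.79 and Dsp with Lct at 0.78. Dcn and Coch, listed for CA1 and CA3, had 0.76. Further close pairs were Dsp with Il16 and Stxbp6 with Rfx3, both dentate and both at 0.75, and Cpne4 with Iyd, both CA3, at 0.74.

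**Figure D5:**
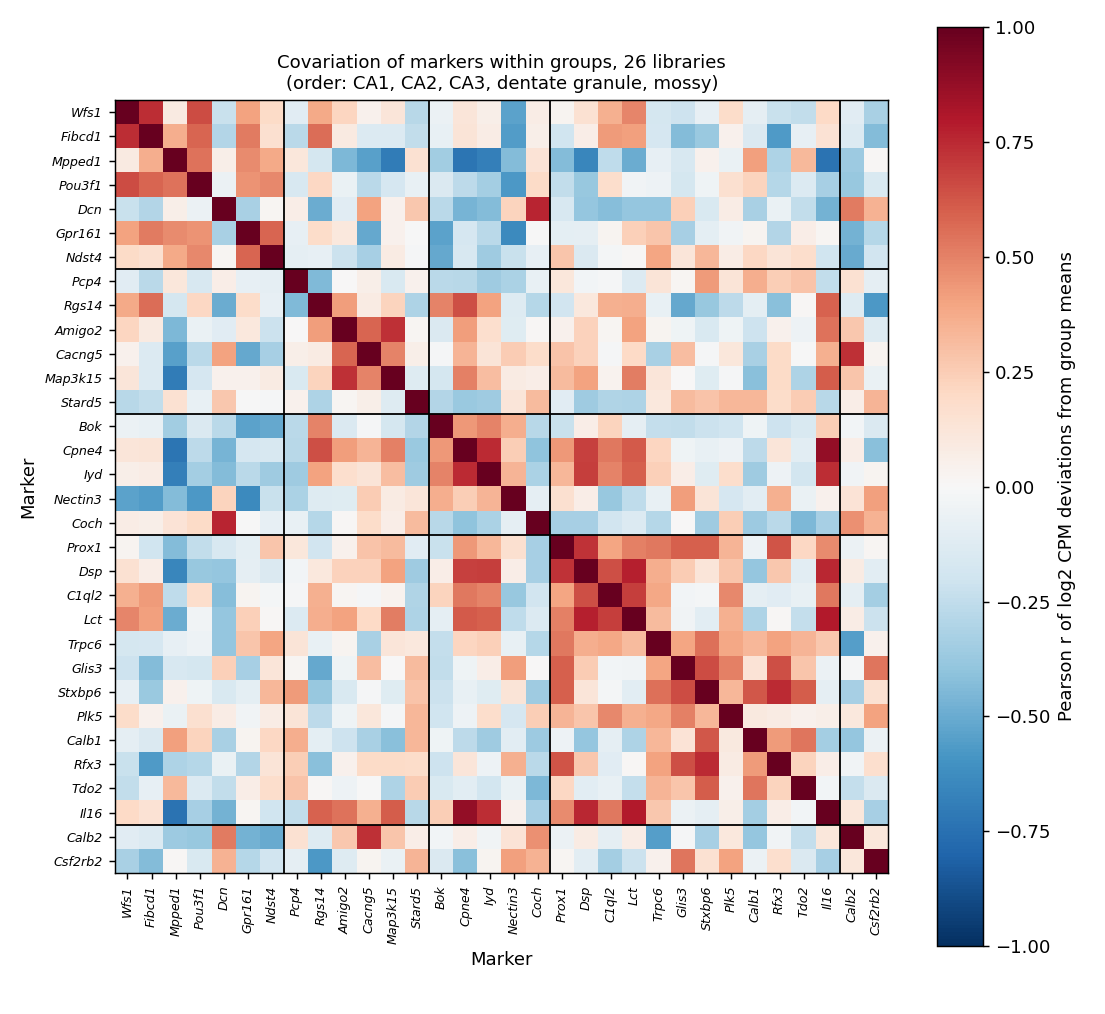
Pearson correlation of log2 CPM deviations from group means between all pairs of the 32 markers over 26 libraries (Vehicle 16 and 29 left out), ordered by subfield with lines between subfields. Most cells within the dentate granule square are positive (median 0.33), while CA1 with CA3 has a median of -0.22.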

How the data were processed

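Raw counts of reads per Ensembl gene were deposited. The authors made these counts with HTSeq 0.6.1 on mm10, per the submitters' processing notes, which also name FastQC and MultiQC. The labels' protocol gives mRNA enrichment and stranded paired-end libraries on a DNBseq instrument. Aligner, annotation release and strand setting were not given in the sources used here. 5 summary rows that name no gene held 12.6% to 19.7% of each column and were left out, and 0 columns lacked a sample.

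Symbols and positions came from GENCODE M21 (GRCm38). All 28 libraries were fitted once in edgeR 4.0.16 (R 4.3.3; TMM scaling, robust quasi-likelihood, 22 residual degrees of freedom) after filterByExpr (minimum count 10, minimum total 15), with group as the only term. The tests were two-sided, adjusted by Benjamini-Hochberg over 16735 genes at 0.05. CPM use TMM library sizes, and log2 CPM a prior count of 2. SE is the size of the log2 fold change over the root of F. The common biological coefficient of variation was 0.133. No library pair of a group matched within counting noise (lowest chi-square per degree of freedom 5.94). DESeq2 1.42.0 and limma-voom (limma 3.58.1) were alternatives. The script was tested on simulated data.

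The members, lists and tests were chosen with earlier results of these data known. The rule for named genes was to name every marker with a level, and to give values per library for those called in any comparison and for the 2 per subfield with the smallest p over the 6 groups. Genes of other lists were named only where they passed. The result of 1 gene of the further lists, with the count and score of its list, is not reported here.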

Additional observations from a re-analysis of the deposited data

Results flagged for a closer look

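Single libraries were compared with the rest of their group for the 14 markers whose values are given per library, over 84 marker and group combinations, and 2 stood far from the others by Dixon's criterion. Chance flags about 1 in 20 groups. Glis3 was at 28.8 CPM in C118 7, with the next C118 library at 20.3 CPM. Calb2 was at 33.4 CPM in Basal 1, with the next Basal library at 9.41 CPM.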

How the results depend on the processing

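The counts of called markers changed with settings, while none of the 24 single calls changed sign under any alternative run. Counts over all tested genes moved as well, and follow each marker count of this paragraph in brackets. In the main fit they were 1871 for all conditioned groups, 688 for Vehicle and 1049 for Cort against Basal. For RU486, C108 and C118 against Basal they were 912, 1010 and 648. They were 36 for C108 against Vehicle and 792 over the 6 groups. With no filter on low counts (31703 genes tested) the count was 3 (1404) for all conditioned groups and 2 (500) for Vehicle against Basal. It was 1 each for Cort (787), RU486 (533), C108 (621) and C118 (400) against Basal. For C108 against Vehicle it was 0 (20), and over the 6 groups together 0 (639). With only the 2 groups fitted it was 2 (355) for Vehicle, 7 (1097) for Cort, 5 (1037) for RU486 and 4 (830) for C108 against Basal. For C108 against Vehicle it was 0 (0). DESeq2 called 6 (1366) for RU486 and 4 (1343) for C108 against Basal, 3 (295) for C108 against Vehicle and 8 (1496) over the 6 groups. Limma-voom called 0 (0) for C108 against Vehicle, and the stricter filter called 5 (831) over the 6 groups. Adding thalamus and neocortex scores as covariates, the count was 4 (839) for Cort, 1 (396) for C108 and 0 (252) for C118 against Basal. For C108 against Vehicle it was 0 (0). Without Vehicle 16 and 29 it was 0 (378) for Vehicle, 4 (1210) for Cort and 4 (1121) for C108 against Basal. For C108 against Vehicle it was 0 (0). Without the whole Vehicle group, an alternative added after the data were seen, all conditioned groups against Basal gave 9 (2211). The cause of these changes was not tested.

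Leaving out 1 library at a time gave 2 to 9 for all conditioned groups (2 without Basal 14, 4 without Basal 1 or 9, 5 without Basal 27 or C118 13), 2 to 6 for Vehicle, 1 to 4 for Cort, 0 to 4 for RU486, 0 to 4 for C108 and 0 to 4 for C118, all against Basal. Against Vehicle the ranges were 0 to 0 for Cort, 0 to 2 for RU486, 0 to 8 for C108 and 0 to 3 for C118, over the 6 groups 0 to 6, and 0 to 0 for the direct pairs. Counts over all tested genes are not given for these runs, so the ranges cannot be set against the share of all genes. With 4 or 5 libraries a group, the spread between libraries limited precision, and counting noise weighed most for Csf2rb2, Coch and Dcn. No paired analysis was possible because each title carries a sample number of its own and groups share none.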
